A study of Mus musculus with 39 samples.

Results

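Border-associated macrophages (BAM) were compared with microglia at E10.5, the earliest stage of a series that sorted both populations from embryonic mouse brains. The comparison used every E10.5 library, 4 labelled BAM and 4 labelled microglia, which are 8 of the 39 libraries of the series. BAM and microglia embryos were alike C57Bl/6 from timed matings, with the plug day counted as E0.5, and no other allele, transgene or treatment is named for either group. Cells were purified by FACS, but the surface markers of the gates are not given in the sources used here, so a gate marker cannot be set apart from an outcome below. Neither do the sources say whether replicates came from separate litters. The p-values therefore measure only the spread between libraries of a group, which may be technical. That spread was estimated over all 39 libraries of the series, in 12 groups of stage and population, and not over the E10.5 libraries alone. RNA sequencing counted reads for 53379 genes, of which 22061 were tested.

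Microglia are the macrophages of the brain parenchyma, whereas BAM live in the meninges, around blood vessels and in the choroid plexus. In mice both descend from progenitors of the yolk sac that seed the brain early in gestation, and both depend on signalling through the colony-stimulating factor receptor Csf1r. Later in life microglia are recognised by Tmem119, P2ry12 and the transcription factor Sall1, and BAM by the mannose receptor Mrc1, the hyaluronan receptor Lyve1, the chemokine Pf4 and the haemoglobin scavenger receptor Cd163.

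The BAM libraries held 23457047 to 29453029 counts and 17452 to 18062 genes with a count, and the microglia libraries 23427239 to 27623988 counts and 17796 to 19574 such genes. Mitochondrial genes took 1.5 to 2.27% of counts in BAM and 1.83 to 2.00% in microglia. No 2 libraries were near-identical. In a principal component analysis of 500 variable genes, component 1 held 32.3% of the variance. It placed the BAM libraries at 15.2 to 32.3 and the microglia libraries at -41.1 to -12.3. Transcripts of Xist (192 to 308 CPM in BAM and 138 to 342 CPM in microglia) and of the Y-linked Ddx3y (28.6 to 59.96 CPM in BAM and 34.0 to 44.9 CPM in microglia) were found in every library, and neither passed the test (adjusted p = 1 and 1). Levels are given as CPM, the count of a gene scaled to the normalised library size, in the order of replicates 1 to 4. Changes are given as the log2 fold change of BAM over microglia ± its standard error. Adjusted p-values come from edgeR's quasi-likelihood test with Benjamini-Hochberg adjustment over all tested genes, and a gene is said to have risen or fallen in BAM where that value was under 0.05.

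At E10.5 the populations already differed in 989 genes, 4.48% of those tested. In BAM, 512 genes (2.32%) were higher and 477 (2.16%) were lower than in microglia, and the median over all tested genes was log2 0. That median includes 1623 genes with no count at E10.5, and over the 7433 genes whose mean log2 CPM was 4 or more it was log2 -0.021. A change of at least 2-fold was estimated for 578 of the 989, 269 higher and 309 lower in BAM. The 4 BAM values lay all above the 4 microglia values for 740 tested genes (3.35%) and all below them for 859 (3.89%). Among the 989, the groups did not overlap for 777, of which 391 were higher and 386 lower in BAM, and they overlapped for 212. Libraries with neighbouring numbers formed 4 pairs of BAM and microglia. In all 4 pairs BAM was higher for 456 of the 512 raised genes and lower for 415 of the 477 others. Because these genes were called on the same values, the pairs are no separate check, and the share over all tested genes was not counted. In sorted bulk samples, fewer cells of a kind in the sort and less RNA per cell cannot be told apart. With the 8 E10.5 libraries fitted alone 524 genes were called, 478 of them among the 989, and all 857 of the 989 that could be fitted there kept their sign.

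**Figure D1:**
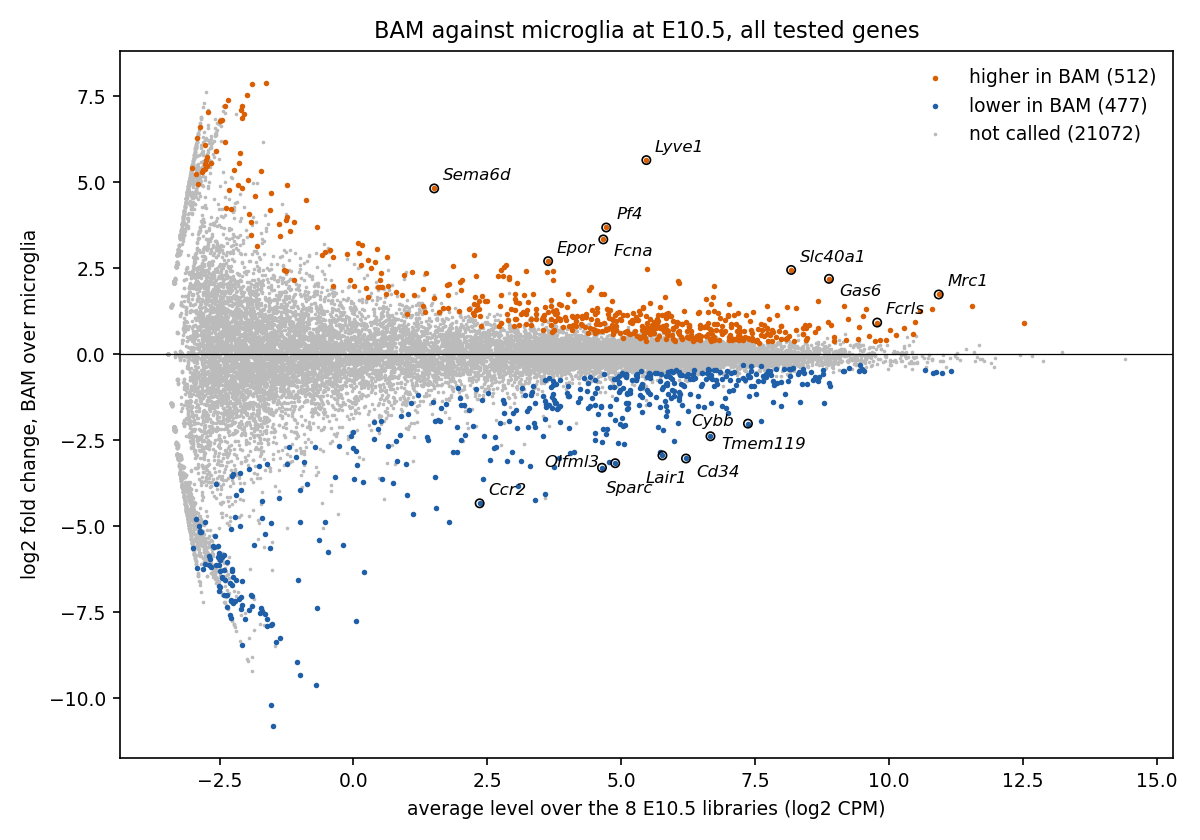
Change between BAM and microglia at E10.5 for each of the 22061 tested genes (vertical axis, log2 fold change, BAM over microglia) against its average level in the 8 libraries (horizontal axis, log2 CPM). Orange points are the 512 genes called higher and blue points the 477 called lower in BAM at an adjusted p under 0.05, grey points the rest, and labels mark genes named in the text; Lyve1 stands at log2 5.65 and Sparc at -3.30.

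The genes most raised in BAM were ranked among those called whose mean log2 CPM was 4 or more. Lyve1, the hyaluronan receptor (chromosome 7, 110850607 to 110863239, GRCm38), had 411, 193, 466 and 344 CPM in BAM, against 2.79, 3.20, 12.6 and 9.56 CPM in microglia. It was the most raised of these genes (log2 5.65 ± 0.64, adjusted p = 2.24e-07), and its microglia values were higher in replicates 3 and 4 than in replicates 1 and 2. Pf4, the chemokine first known from platelets, had 86.0, 71.2, 167 and 155 CPM in BAM, against 1.92, 3.20, 22.1 and 9.81 CPM in microglia (log2 3.69 ± 0.64, adjusted p = 0.000188). Microglia replicate 3 was again the highest of its group, and without that library the change in Pf4 was log2 4.60. Fcna, which encodes ficolin A, a secreted lectin that can start the complement cascade, had 60.6, 59.7, 129 and 119 CPM in BAM, against 4.41, 3.23, 15.2 and 13.4 CPM in microglia (log2 3.34 ± 0.37, adjusted p = 2.2e-07). In none of the genes Lyve1, Pf4 and Fcna did any microglia library reach the lowest BAM library.

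Slc40a1, the iron exporter ferroportin, had 814, 659, 672 and 692 CPM in BAM, against 66.8, 85.6, 180.3 and 186 CPM in microglia (log2 2.45 ± 0.25, adjusted p = 4.75e-08). Gas6, the ligand of the receptor tyrosine kinases Axl and Mertk, had 1195, 865, 1134 and 987 CPM in BAM, against 153, 143, 331 and 287 CPM in microglia (log2 2.19 ± 0.18, adjusted p = 7.28e-10). Both genes were high and even in the BAM libraries, while microglia replicates 3 and 4 stood above replicates 1 and 2. Colec12, a collectin-type scavenger receptor, had 153, 128, 156 and 134 CPM in BAM, against 30.6, 21.7, 45.0 and 32.4 CPM in microglia (log2 2.14 ± 0.21, adjusted p = 2.55e-08). Mrc1, the mannose receptor, had 4610, 3231, 3375 and 3588 CPM in BAM, against 757, 670.2, 1578 and 1427 CPM in microglia (log2 1.74 ± 0.27, adjusted p = 3.8e-05), so that it was abundant in both populations and its groups did not overlap. Igf1, a growth factor, had 86.6, 99.6, 106 and 114 CPM in BAM, against 22.6, 32.6, 33.8 and 39.6 CPM in microglia (log2 1.66 ± 0.23, adjusted p = 6.42e-06). The remaining genes of the 15 most raised ran from log2 1.74 to 2.50. They were the receptor Gprc5c, the proteoglycan Sdc4, the collagen chaperone Serpinh1, the metalloproteinase inhibitor Timp2, Mrvi1, the biliverdin reductase Blvrb and the glycosyltransferase B3galnt1, which was not called in the fit of the 8 libraries alone (adjusted p = 0.0569) and stood at log2 2.48 without microglia replicate 3.

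The genes most reduced in BAM were adhesion, matrix and inhibitory receptor genes together with the microglial marker Tmem119. Sparc, a matricellular protein of the microglial core set, had 4.33, 10.9, 6.49 and 12.2 CPM in BAM, against 67.4, 138, 59.2 and 68.8 CPM in microglia (log2 -3.30 ± 0.37, adjusted p = 2.24e-07). Olfml3, a secreted olfactomedin-like protein, had 8.09, 19.0, 5.10 and 10.1 CPM in BAM, against 105, 135, 71.7 and 69.7 CPM in microglia (log2 -3.17 ± 0.29, adjusted p = 6.82e-09). For both, the highest BAM value stayed well under the lowest microglia value, and microglia replicate 2 was the highest library. Sorl1, an intracellular sorting receptor, had 12.3, 14.6, 2.01 and 12.7 CPM in BAM, against 108, 114, 65.5 and 79.8 CPM in microglia (log2 -3.13 ± 0.37, adjusted p = 5.09e-07). Cd34, a sialomucin of haematopoietic progenitors and endothelium, had 25.7, 39.4, 17.9 and 24.2 CPM in BAM, against 249, 297, 154 and 176 CPM in microglia (log2 -3.03 ± 0.35, adjusted p = 3.68e-07). Lair1, an inhibitory receptor for collagen, had 23.7, 27.0, 15.2 and 15.2 CPM in BAM, against 165, 218, 108 and 134 CPM in microglia (log2 -2.94 ± 0.23, adjusted p = 3.28e-10). Tmem119, a membrane protein of unknown function and the best known microglial marker, had 40.8, 77.5, 33.2 and 33.8 CPM in BAM, against 274, 307, 196 and 192 CPM in microglia (log2 -2.38 ± 0.22, adjusted p = 9.07e-09), so its transcript was present in every BAM library although far lower there.

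Of the 15 most reduced genes the others ran from log2 -2.88 to -2.33. They included the inhibitory receptor Pilra, the junctional adhesion molecule F11r, the protease inhibitor Serpine2, the ubiquitin ligase Neurl3, the kinase Sgk1, the membrane protein Plxdc2 and the matricellular protein Thbs1. Plxdc2 stood at log2 -2.50, and at -3.13 without BAM replicate 2. Cd69, a lymphoid and myeloid activation antigen, had 7.56, 11.2, 4.79 and 3.44 CPM in BAM, against 54.3, 52.2, 45.6 and 42.0 CPM in microglia (log2 -2.84 ± 0.72, adjusted p = 0.0141), but it missed the threshold without BAM replicate 3 (adjusted p = 0.0534) and without BAM replicate 4 (adjusted p = 0.0571).

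**Figure D2:**
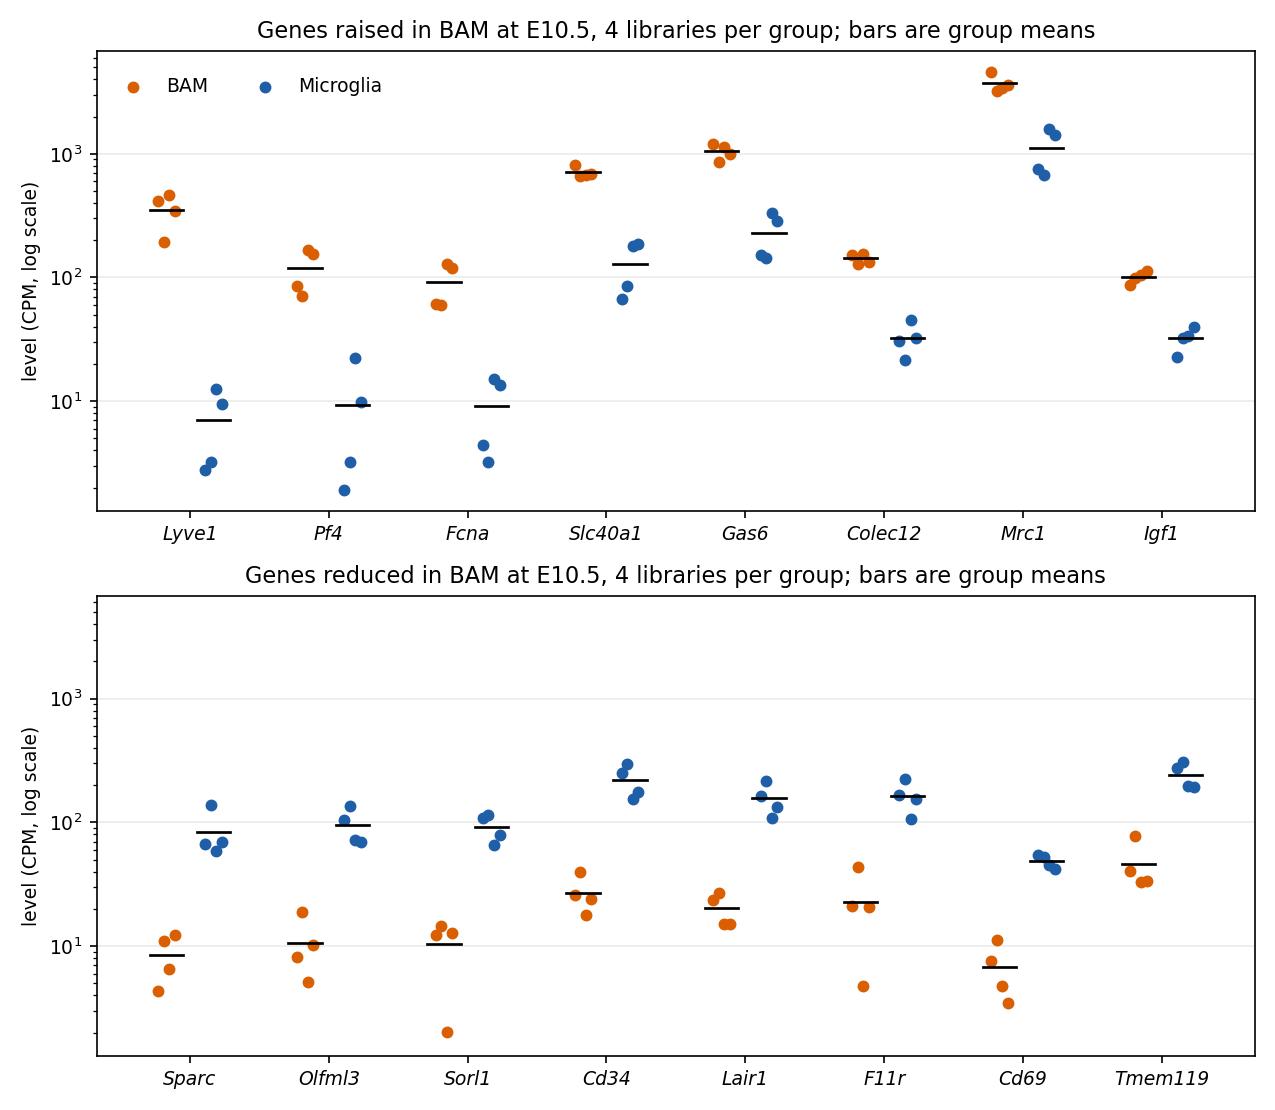
Level of 8 genes raised and 8 genes reduced in BAM at E10.5 (vertical axis, CPM, log scale), with 1 point per library, BAM in orange to the left and microglia in blue to the right of each gene, and a bar at each group mean. For every gene drawn the 4 BAM points lie on 1 side of the 4 microglia points, as in Lyve1 with 193 to 466 CPM in BAM and 2.79 to 12.6 CPM in microglia.

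The libraries within a group also differed in an ordered way. Among called genes whose mean log2 CPM was 4 or more, 320 were higher in BAM. For these, microglia replicate 3 was the highest microglia library in 53.4% and replicate 4 in 26.9%, against 25% and 23.9% over all 7433 genes at that level. A further 255 genes at that level were lower in BAM. For these, BAM replicate 2 was the highest BAM library in 47.5%, against 18.1% over all such genes. Microglia replicate 2 was the highest microglia library in 65.1%, against 20.4%. What set these libraries apart was not tested, and a smaller contrast between the populations goes with microglia replicate 3 and BAM replicate 2.

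Promoter windows are shown for the 2 leading genes on each side that had one in the RefSeq set (GRCm38.p6), each from 250 bases before to 50 after the start, on the gene's strand. Capitals mark matches to 2 motifs on either strand. They are the core of the PU.1 site (GAGGAA, or TTCCTC on the other strand) and the MAF half-site (TGCTGA, or TCAGCA), named for factors that macrophages carry.
Pf4 (raised in BAM, chr5:90772185-90772484, plus strand): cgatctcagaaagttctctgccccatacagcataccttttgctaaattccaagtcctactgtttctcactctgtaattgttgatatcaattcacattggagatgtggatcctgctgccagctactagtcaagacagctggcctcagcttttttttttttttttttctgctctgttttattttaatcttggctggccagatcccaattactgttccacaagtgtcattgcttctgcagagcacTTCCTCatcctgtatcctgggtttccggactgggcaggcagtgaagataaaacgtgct
Fcna (raised in BAM, chr2:25627925-25628224, minus strand): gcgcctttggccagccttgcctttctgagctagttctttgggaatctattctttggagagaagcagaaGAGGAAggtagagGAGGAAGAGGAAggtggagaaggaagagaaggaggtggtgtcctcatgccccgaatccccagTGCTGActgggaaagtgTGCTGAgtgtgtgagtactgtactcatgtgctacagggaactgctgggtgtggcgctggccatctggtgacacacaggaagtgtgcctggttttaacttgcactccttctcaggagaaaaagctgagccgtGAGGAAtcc
Sparc (reduced in BAM, chr11:55420031-55420330, minus strand): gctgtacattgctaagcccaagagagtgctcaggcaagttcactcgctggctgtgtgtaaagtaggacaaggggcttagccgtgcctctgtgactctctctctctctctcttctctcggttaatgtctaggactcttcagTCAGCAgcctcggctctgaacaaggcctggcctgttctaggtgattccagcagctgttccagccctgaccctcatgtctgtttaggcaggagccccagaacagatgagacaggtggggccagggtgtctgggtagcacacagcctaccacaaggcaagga
Olfml3 (reduced in BAM, chr3:103737952-103738251, minus strand): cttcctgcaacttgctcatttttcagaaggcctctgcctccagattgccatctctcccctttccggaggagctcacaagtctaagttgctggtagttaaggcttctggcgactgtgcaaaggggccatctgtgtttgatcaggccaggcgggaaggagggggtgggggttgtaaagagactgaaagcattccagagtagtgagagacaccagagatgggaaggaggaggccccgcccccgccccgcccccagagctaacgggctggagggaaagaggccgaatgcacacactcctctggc
The Fcna window held 4 PU.1 cores and 2 MAF half-sites, those of Pf4 and Sparc 1 match each, and that of Olfml3 none. A PU.1 core stood in 28.9% of 553 windows of genes raised in BAM, in 32.2% of 494 windows of genes reduced in BAM and in 27.2% of 16972 windows of all tested genes. For the MAF half-site the shares were 20.4%, 16% and 16.7%. For AP-1 (TGANTCA) they were 8.14%, 8.91% and 5.69%. A match describes these letters only.

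The labels were set beside the marker genes of each population. These lists were written with earlier results of these data known, so their counts are no independent check of the labels. Of 30 BAM core genes, 19 were higher and 1 was lower in BAM, with a median of log2 1.44. Of 30 microglia core genes 18 were lower and 2 higher in BAM, with a median of log2 -1.26. Over all tested genes 2.32% were higher and 2.16% lower, with a median of log2 0. Stab1, a scavenger receptor, had 2776, 2174, 2585 and 2037 CPM in BAM, against 775, 900, 1245 and 1054 CPM in microglia (log2 1.27 ± 0.16, adjusted p = 1.8e-06). Igfbp4, a binding protein of insulin-like growth factors, had 801, 625, 825 and 622 CPM in BAM, against 214, 144, 339.8 and 284 CPM in microglia (log2 1.55 ± 0.19, adjusted p = 7.14e-07). F13a1, the coagulation factor XIII A subunit, had 3248, 2722, 2655 and 2848 CPM in BAM, against 864, 959.7, 1375 and 1381 CPM in microglia (log2 1.32 ± 0.36, adjusted p = 0.0236). Each group kept apart from the other in these genes, although F13a1 missed the threshold without microglia replicate 1 (adjusted p = 0.0906), microglia replicate 2 (0.0753) or BAM replicate 1 (0.0551).

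Other BAM markers were low in both populations. Cd163 had 3.33, 0.143, 3.09 and 1.38 CPM in BAM, against 0.262, 0, 0 and 0 CPM in microglia (log2 4.93 ± 1.37, adjusted p = 0.0277). It was called on few counts, and missed the threshold at adjusted p = 0.0735 to 0.0908 without BAM replicate 1 or 3 or without microglia replicate 2, 3 or 4. Ms4a7, a tetraspanning membrane protein, had 3.62, 6.52, 9.89 and 12.8 CPM in BAM, against 0.349, 1.53, 3.75 and 2.14 CPM in microglia (log2 2.06 ± 0.52, adjusted p = 0.0144), and missed the threshold at adjusted p = 0.0543 to 0.0681 without microglia replicate 1 or 2 or BAM replicate 4, and at 0.112 in the fit of the 8 libraries alone. Cbr2, a carbonyl reductase of adult BAM in mice, stayed under 1 CPM in all 8 libraries and was not called (adjusted p = 0.302).

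Among microglial markers, Sall3, a zinc finger factor related to Sall1, had 4.61, 5.02, 5.95 and 4.47 CPM in BAM, against 21.8, 29.4, 17.7 and 18.2 CPM in microglia (log2 -2.12 ± 0.49, adjusted p = 0.00619). No BAM library reached the microglia range for Sall3. Siglech, a sialic acid-binding lectin, had 45.3, 75.8, 45.5 and 33.8 CPM in BAM, against 60.8, 144, 67.0 and 87.0 CPM in microglia (log2 -0.84 ± 0.22, adjusted p = 0.0156), with BAM replicate 2 above microglia replicates 1 and 3. It missed the threshold without microglia replicate 2 (log2 -0.49, adjusted p = 0.212), without any 1 of BAM replicates 1, 3 and 4 (0.051 to 0.0831) and in the fit of the 8 libraries alone (0.209).

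The purinergic receptor P2ry12, a marker of adult microglia, had 105, 126, 105 and 158 CPM in BAM, against 153, 234, 164 and 168 CPM in microglia (log2 -0.54 ± 0.17, adjusted p = 0.0573). It did not pass the test, and BAM replicate 4 lay within the microglia range. With neighbouring library numbers as a block its adjusted p was 0.0118 at log2 -0.54. It also passed without microglia replicate 1 (0.0496) or BAM replicate 4 (0.019), and with DESeq2 (0.0275). Sall1 had 1.92, 0, 0 and 0 CPM in BAM, against 7.33, 3.31, 0.455 and 0.330 CPM in microglia (log2 -2.48 ± 0.79, adjusted p = 0.0689), so BAM replicate 1 was the only BAM library with a count. With the block the change in Sall1 was log2 -2.91 (adjusted p = 0.0065). Sall1 also passed without microglia replicate 3 (0.0251) or 4 (0.0244) and without BAM replicate 1 (0.000696), when no BAM count remained, while without microglia replicate 1 it was log2 -1.46 (0.435). Fcrls, an Fc receptor-like gene used as a microglial marker, was 1 of the 2 core genes that went the other way, with 1292, 1131, 1244 and 1196 CPM in BAM, against 507, 639, 763 and 656 CPM in microglia (log2 0.92 ± 0.11, adjusted p = 2.7e-07). Every BAM library was above every microglia library for Fcrls.

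Genes of macrophage identity in general were less unequal. Csf1r had 3796, 3188, 2891 and 3061 CPM in BAM, against 3497, 4122, 3181 and 3547 CPM in microglia and did not pass the test (log2 -0.15 ± 0.10, adjusted p = 0.525). Cx3cr1, the fractalkine receptor, had 1835, 1754, 1347 and 1443 CPM in BAM, against 2342, 2537, 2082 and 2098 CPM in microglia (log2 -0.51 ± 0.12, adjusted p = 0.00855), but missed the threshold without microglia replicate 2 (adjusted p = 0.0592) or BAM replicate 3 (0.0593). Of the 17 genes listed for macrophage identity 6 were lower and 1 was higher in BAM, with a median of log2 -0.21. Itgam, the CD11b integrin chain, had 31.5, 23.8, 20.5 and 22.1 CPM in BAM, against 79.8, 78.1, 53.3 and 58.6 CPM in microglia (log2 -1.46 ± 0.17, adjusted p = 3.68e-07). Cd33, an inhibitory lectin, had 150.3, 175, 98.5 and 151 CPM in BAM, against 403, 459, 306 and 329.9 CPM in microglia (log2 -1.38 ± 0.16, adjusted p = 4.09e-07). The other 4 decreases were smaller, among them Irf8, a transcription factor of myeloid cells (log2 -0.54 ± 0.10, adjusted p = 0.000439), and Laptm5, a lysosomal membrane protein (log2 -0.44 ± 0.091, adjusted p = 0.00159). The gene called higher was Adgre1, which encodes the macrophage antigen F4/80 (log2 0.43 ± 0.13, adjusted p = 0.0435), with 674 to 960.3 CPM in BAM and 481 to 678 CPM in microglia. That call was lost with the block of neighbouring library numbers (adjusted p = 0.0558), in the fit of the 8 libraries alone (0.145) and, at 0.0506 to 0.18, without any 1 of BAM replicates 1 and 2 and microglia replicates 1, 3 and 4.

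Among endocytic and iron-handling genes most calls were higher in BAM, and some of these genes, such as Mrc1, Lyve1, Colec12 and Fcna, belong to the BAM core list too. Of 23 scavenger and endocytic receptors 10 were higher and 1 was lower in BAM, with a median of log2 1.20. Their summed levels were 11800 to 15550 CPM in BAM and 4254 to 6521 CPM in microglia. For iron and haem handling, 8 of 18 genes were higher and none lower, with a median of log2 0.55. In that list 5 were called higher in the fit of the 8 libraries alone, and 1 gene was called lower with the block or with DESeq2 and stood under 0.05 before adjustment. Tfrc, the transferrin receptor that imports iron, had 163, 135, 133 and 106 CPM in BAM, against 56.7, 55.8, 65.1 and 52.5 CPM in microglia (log2 1.22 ± 0.20, adjusted p = 8.52e-05). Slc48a1, a haem transporter of the lysosome, had 289.9, 273, 273 and 253 CPM in BAM, against 152, 154, 174 and 174 CPM in microglia (log2 0.74 ± 0.11, adjusted p = 3.01e-05). Blvrb, which reduces biliverdin formed from haem, had 25.2, 32.5, 74.7 and 69.1 CPM in BAM, against 10.9, 11.2, 23.5 and 14.47 CPM in microglia (log2 1.74 ± 0.28, adjusted p = 7.44e-05). Genes for both import and export of iron were therefore among those raised. Epor, the erythropoietin receptor and a member of the erythroid marker list, had 30.8, 33.1, 32.7 and 36.1 CPM in BAM, against 2.53, 3.34, 6.07 and 8.33 CPM in microglia (log2 2.71 ± 0.29, adjusted p = 1.12e-07), while the globin genes of that list did not pass the test. Over the 12 erythroid markers 4 changes were positive and 8 negative, with a median of log2 -0.28.

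Lectin and lysosomal genes split between the populations. Of 17 C-type lectins and Siglecs, 4 were higher and 4 lower in BAM, with a median of log2 -0.34, and 2 were higher without microglia replicate 1 or in the fit of the 8 libraries alone. Clec10a, a galactose-binding lectin, had 11.96, 17.02, 35.9 and 35.8 CPM in BAM, against 1.92, 2.18, 10.4 and 4.37 CPM in microglia (log2 2.41 ± 0.50, adjusted p = 0.00191), and stood at log2 3.16 without microglia replicate 3. Clec7a, the beta-glucan receptor dectin-1, had 44.0, 48.9, 18.9 and 26.6 CPM in BAM, against 152, 174, 103 and 125 CPM in microglia (log2 -2.001 ± 0.26, adjusted p = 1.99e-06). Clec12a, an inhibitory lectin receptor, had 12.1, 19.2, 17.1 and 18.6 CPM in BAM, against 63.3, 87.6, 52.2 and 74.5 CPM in microglia (log2 -2.05 ± 0.25, adjusted p = 5.8e-07). Their groups did not overlap in either direction. Of 24 lysosomal genes 3 were higher and 5 lower in BAM, with a median of log2 0.0014. Ctsb, the protease cathepsin B, had 8439, 7658, 8176 and 7882 CPM in BAM, against 3303, 4222, 4950 and 4702 CPM in microglia (log2 0.90 ± 0.11, adjusted p = 5.8e-07). By contrast Ctss, cathepsin S, had 197, 368, 245 and 310.5 CPM in BAM, against 585, 1059, 652 and 675 CPM in microglia (log2 -1.41 ± 0.19, adjusted p = 4.31e-06), and Ctsh, cathepsin H, changed by log2 -2.12 ± 0.25 (adjusted p = 3.92e-07). In the Ms4a family 3 of 13 genes were higher and 2 lower (5 and 1 with the block of neighbouring library numbers, and 1 higher without BAM replicate 4), among them Ms4a4a with log2 1.11 ± 0.22 (adjusted p = 0.000878) and Ms4a4c with -1.72 ± 0.42 (0.011). Reads of near-identical family members could have been split by the counting, which leaves the Ms4a values uncertain.

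More cytokine and chemokine genes were called higher than lower in BAM, while all calls in the list of chemokine and growth factor receptors were lower. Of 27 cytokines and chemokines 7 were higher and 1 was lower in BAM, with a median of log2 -0.073 (2 lower with the block, 4 higher in the fit of the 8 libraries alone). Of 17 chemokine and growth factor receptors none was higher, 10 were lower and 7 were not called, with a median of log2 -0.90. With the block 1 receptor was called higher, as with DESeq2, and 1 was higher at an unadjusted p under 0.05. Ccl7, a monocyte attractant, had 21.8, 15.3, 43.0 and 42.0 CPM in BAM, against 4.28, 3.02, 8.49 and 7.25 CPM in microglia (log2 2.40 ± 0.34, adjusted p = 8.27e-06). The inflammasome cytokine Il18 had 16.1, 16.3, 35.9 and 38.98 CPM in BAM, against 3.40, 9.12, 12.6 and 14.7 CPM in microglia (log2 1.43 ± 0.28, adjusted p = 0.000858), which was not called in the fit of the 8 libraries alone (adjusted p = 0.124). BAM replicates 3 and 4 were the highest libraries for both. In the receptor list, Il10ra, the receptor chain for the cytokine Il10, had 109, 109, 79.3 and 88.3 CPM in BAM, against 211, 259, 153 and 170.2 CPM in microglia (log2 -1.04 ± 0.13, adjusted p = 6.46e-07). Ccr1 and Csf2rb, the chain shared by the receptors for GM-CSF and related cytokines, changed by log2 -0.77 ± 0.12 and -0.74 ± 0.12. All 3 receptors were lower in every BAM library than in any microglia library.

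Of 16 complement genes 1 was higher and 4 were lower in BAM, with a median of log2 0.15. C5ar1, the receptor for the complement anaphylatoxin, had 445, 293, 346 and 327 CPM in BAM, against 125, 76.4, 179 and 148 CPM in microglia (log2 1.42 ± 0.20, adjusted p = 6.42e-06). Itgb2, the beta chain of the CD11b integrin, had 146, 150.1, 116 and 94.9 CPM in BAM, against 286, 254, 189 and 228 CPM in microglia (log2 -0.91 ± 0.14, adjusted p = 3.02e-05). Itgax, the CD11c chain, held 2 counts in all BAM libraries together and 231 in all microglia libraries, a ratio of 120 in favour of microglia with a 95% counting interval of 32.9 to 999. Such intervals cover counting error only, and since a count of 2 was more frequent than a count of 1 over all libraries (49977 and 21280 values), reads may have been counted by mate, which would make the intervals too narrow and the bounds below too high. Of 16 purinergic genes none was higher and 2 were lower (1 was higher at an unadjusted p under 0.05, none with DESeq2), the adenosine receptor Adora3 (log2 -2.39 ± 0.36, adjusted p = 2.61e-05) and P2ry14, a receptor for UDP-sugars (log2 -2.01 ± 0.48, adjusted p = 0.00755), and with the block 5 were lower.

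All 10 genes of MHC class II presentation had negative changes, with a median of log2 -1.69, and 5 of them were called lower in BAM. H2-DMa, a chain of the peptide-loading catalyst, had 0.780, 2.90, 1.55 and 0.688 CPM in BAM, against 6.46, 18.2, 6.45 and 11.8 CPM in microglia (log2 -2.84 ± 0.44, adjusted p = 3.77e-05). H2-DMb1, its partner chain, had 1.14, 1.00, 1.55 and 0.902 CPM in BAM, against 3.53, 7.05, 1.52 and 3.17 CPM in microglia (log2 -1.73 ± 0.31, adjusted p = 0.000279; 0.148 in the fit of the 8 libraries alone). H2-Ob, a chain of the modulator H2-O, had no count in BAM and 57 counts in microglia, which makes it at least 19.8-fold lower in BAM with 3 counts placed in that group. Cd74, the invariant chain, had 4.26, 10.4, 6.69 and 9.76 CPM in BAM, against 15.6, 30.0, 13.7 and 20.1 CPM in microglia (log2 -1.35 ± 0.33, adjusted p = 0.0091), and missed the threshold without microglia replicate 2 (adjusted p = 0.0786). The class II genes were weakly expressed throughout, at summed levels of 8.41 to 16.52 CPM in BAM and 26.9 to 65.5 CPM in microglia. In the fit of the 8 libraries alone 1 of the 5 was called. Of 22 interferon response genes 1 was higher and 2 were lower in BAM, with a median of log2 -0.17, 4 were lower with the block, and none was called in the fit of the 8 libraries alone.

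In the TGF-beta and BMP list 1 of 28 genes was higher and 5 were lower in BAM, with a median of log2 -0.14, and 2 were higher with the block. Tgfbr1, the type I receptor, had 154, 211, 104 and 149 CPM in BAM, against 448, 580, 348 and 373 CPM in microglia (log2 -1.50 ± 0.27, adjusted p = 0.000273). Skil, a repressor that this pathway induces, had 37.4, 41.0, 23.4 and 25.6 CPM in BAM, against 112, 121, 55.8 and 83.4 CPM in microglia (log2 -1.54 ± 0.23, adjusted p = 2.72e-05). Pmepa1, another target that feeds back on the pathway, changed by log2 -2.48 ± 0.46 (adjusted p = 0.000523), by -3.25 without BAM replicate 2, and was not called in the fit of the 8 libraries alone (0.12). The ligand Bmp2 had 27.6, 10.6, 12.9 and 11.52 CPM in BAM, against 3.05, 2.83, 4.02 and 2.97 CPM in microglia (log2 2.28 ± 0.48, adjusted p = 0.00227). Bmp2 signals through BMP receptors and not through Tgfbr1, and the changes of the 28 genes were 13 positive and 15 negative.

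Of 30 macrophage transcription factors 4 were higher and 7 lower in BAM, with a median of log2 -0.23, and the count higher was 2 without any 1 of microglia replicates 1 to 3 or of BAM replicates 1, 3 and 4. Bhlhe40 had no count in any BAM library and 447 counts in microglia, in which it stood at 4.89, 5.67, 1.86 and 5.36 CPM, and was therefore at least 155-fold lower in BAM. Its relative Bhlhe41 had 7.17, 10.8, 3.17 and 10.1 CPM in BAM, against 35.6, 44.1, 20.4 and 22.4 CPM in microglia (log2 -1.97 ± 0.26, adjusted p = 4.16e-06). Both are basic helix-loop-helix repressors. Etv1, an ETS family factor, had 57.4, 48.6, 37.3 and 31.6 CPM in BAM, against 18.54, 13, 19.2 and 21.1 CPM in microglia (log2 1.28 ± 0.18, adjusted p = 1.28e-05). Maf, a basic leucine zipper factor, had 242, 243, 224 and 240.2 CPM in BAM, against 155, 159, 152 and 179.5 CPM in microglia (log2 0.56 ± 0.16, adjusted p = 0.0447), and missed the threshold at adjusted p = 0.0567 to 0.11 without any 1 of the libraries other than microglia replicate 4.

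Among adhesion and matrix genes more were called lower than higher in BAM, beside 12 and 11 that were not called. Of 20 integrin and adhesion genes 1 was higher and 7 were lower, with a median of log2 -0.73, and without microglia replicate 2 the count lower was 4. F11r had 21.1, 43.8, 4.79 and 20.8 CPM in BAM, against 167, 224, 106 and 153 CPM in microglia (log2 -2.85 ± 0.35, adjusted p = 9.43e-07). Of 23 matrix and protease genes 2 were higher (4 with the block) and 10 lower, with a median of log2 -0.93. Their summed levels were 183 to 223 CPM in BAM and 390.2 to 628 CPM in microglia. Spint1, an inhibitor of membrane serine proteases, had 3.19, 4.62, 3.48 and 1.20 CPM in BAM, against 25.6, 38.3, 19.8 and 24.3 CPM in microglia (log2 -3.10 ± 0.37, adjusted p = 6.65e-07). Mmp14, a membrane-bound metalloproteinase, had no count in BAM and 377 counts in microglia, so that it was at least 131-fold lower in BAM. For both genes every BAM library lay below every microglia library.

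Axon guidance genes were split, with 4 of 23 higher and 3 lower in BAM and a median of log2 0, 2 of them higher in the fit of the 8 libraries alone. Sema6d, a transmembrane semaphorin, had 14.6, 15.01, 7.81 and 24.1 CPM in BAM, against 0.523, 0.145, 0.834 and 0.659 CPM in microglia (log2 4.82 ± 0.38, adjusted p = 3.28e-10) and was close to the detection limit in all microglia libraries. Nrp2, a receptor for secreted semaphorins, had 67.8, 37.2, 45.4 and 47.9 CPM in BAM, against 15.5, 19.5, 19.0 and 13.2 CPM in microglia (log2 1.56 ± 0.17, adjusted p = 1.66e-07). Sema4d, by contrast, had 91.2, 96.6, 42.4 and 69.7 CPM in BAM, against 215, 307, 154 and 206 CPM in microglia (log2 -1.55 ± 0.21, adjusted p = 6.46e-06). Among 19 axon-tract and lipid-associated genes 3 were higher and 5 lower, with a median of log2 -0.26, and 8 were lower with the block and 3 in the fit of the 8 libraries alone. Abca1, which exports cholesterol, had 304, 276, 272 and 244 CPM in BAM, against 79.3, 116, 146 and 127 CPM in microglia (log2 1.22 ± 0.19, adjusted p = 3.18e-05), and the tetraspanin Cd9 had 16.9, 29.2, 23.0 and 46.9 CPM in BAM, against 70.3, 94.95, 65.0 and 85.3 CPM in microglia (log2 -1.44 ± 0.26, adjusted p = 0.000309).

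No gene of the mitosis, DNA replication and cholesterol synthesis lists was called, where 4.48% of all tested genes were, and 3 of 21 glycolysis genes were called. None of 20 mitosis genes and none of 20 DNA replication genes passed edgeR's test or DESeq2's, with 1 mitosis gene higher and 1 replication gene lower at an unadjusted p under 0.05. The changes ran from log2 -0.19 to 0.38 for mitosis and from -0.35 to 0.39 for replication, and the mitosis genes summed to 5117 to 5958 CPM in BAM and 5013 to 5478 CPM in microglia. None of 20 cholesterol synthesis genes passed with either tool (log2 -1.09 to 0.24), although 3 were lower at an unadjusted p under 0.05 and 2 were called lower with the block. Of these 20 changes 19 were negative and 1 was positive, with a median of log2 -0.37. Of 20 immediate early and heat shock genes none was called here, with a median of log2 -0.25, but 5 were lower at an unadjusted p under 0.05, 1 with DESeq2, 5 with the block and 3 in the fit of the 8 libraries alone. Of 21 genes of glycolysis and glucose uptake 1 was higher and 2 were lower in BAM, with a median of log2 -0.25, and 6 were lower with the block and 5 without BAM replicate 1. In that list 17 changes were negative and 4 positive. The summed glycolysis levels were 19300 to 19550 CPM in BAM and 21690 to 24230 CPM in microglia. Hk3, a hexokinase of myeloid cells, had 263, 232, 232 and 229.8 CPM in BAM, against 84.6, 130.4, 133 and 138 CPM in microglia (log2 0.98 ± 0.12, adjusted p = 8.34e-07). Slc2a6, a glucose transporter family member, had 1.28, 2.37, 1.24 and 5.07 CPM in BAM, against 42.5, 56.9, 21.5 and 20.8 CPM in microglia (log2 -3.84 ± 0.73, adjusted p = 0.000642), and stood at log2 -4.44 without BAM replicate 4. Of 17 haematopoietic progenitor genes Cd34 alone was called (3 lower with the block), and the receptor Kit stayed at 0 to 0.752 CPM in BAM and 0.218 to 1.18 CPM in microglia.

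**Figure D3:**
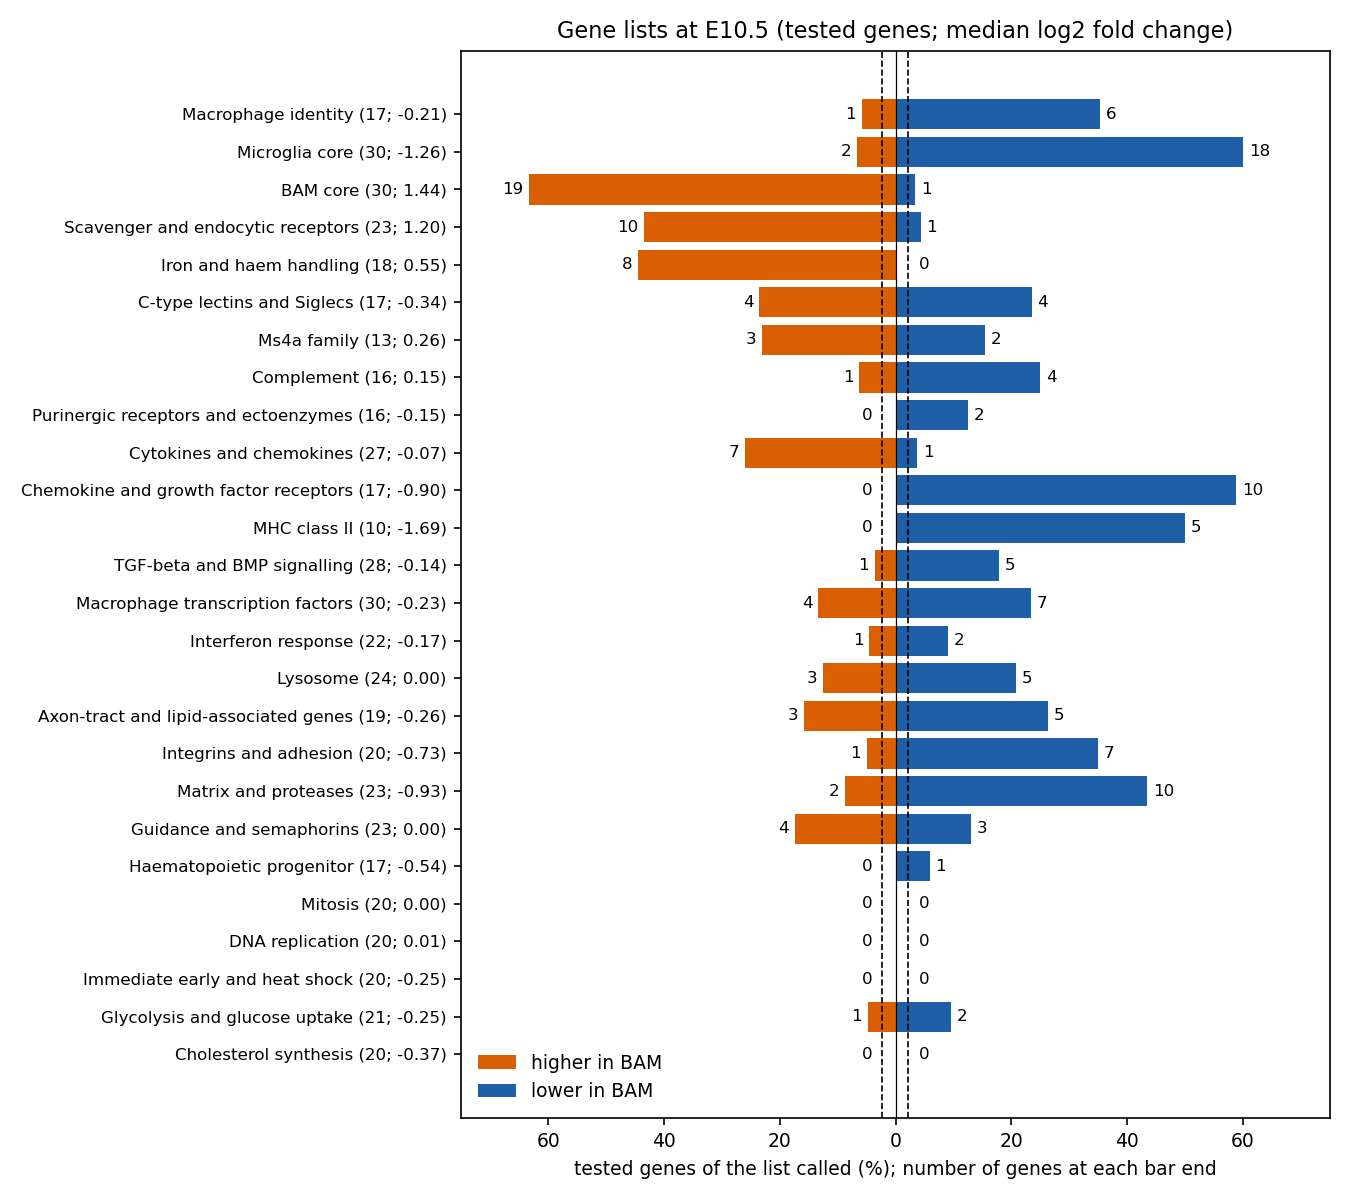
Share of the tested genes of each list that were called higher (orange, to the left) and lower (blue, to the right) in BAM at E10.5, in percent, with the number tested and the median log2 fold change beside each name. Dashed lines mark the shares over all 22061 tested genes, 2.32% higher and 2.16% lower. The BAM core and microglia core lists, written with earlier results of these data known, reach 19 of 30 higher and 18 of 30 lower.

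Summed markers of monocytes and granulocytes were lower in every BAM library than in any microglia library. Summed over 10 monocyte markers the level was 46.3 to 72.8 CPM in BAM and 142 to 196 CPM in microglia. Called lower in BAM were 3 of the 10 (2 with RLE size factors, 4 with DESeq2), and 7 changes were negative and 2 positive. The number of monocyte markers called lower was 2 without any 1 of microglia replicates 1, 2 and 4 and BAM replicates 2 to 4. It was 4 with the block and in the fit of the 8 libraries alone. The most abundant of these markers was Fn1, at 28.0 to 62.5 CPM in BAM and 79.7 to 117 CPM in microglia (log2 -1.28 ± 0.38, adjusted p = 0.0452). Ccr2, the receptor that draws monocytes into tissue, had 0.213, 1.72, 1.55 and 1.55 CPM in BAM, against 26.5, 34.6, 12.2 and 28.2 CPM in microglia (log2 -4.33 ± 0.79, adjusted p = 0.000384). Ly6c2, the antigen of classical mouse monocytes, was at 0 to 0.0773 CPM in BAM and 0 to 0.436 CPM in microglia, and Chil3 had no count. Over 10 granulocyte markers the sum was 6.69 to 9.71 CPM in BAM and 56.6 to 116 CPM in microglia, and of the 6 that were tested none was called by edgeR. Lower at an unadjusted p under 0.05 were 3 of them, while 1 was called lower with DESeq2 or with the block and 2 in the fit of the 8 libraries alone. Of the 6 granulocyte changes 4 were negative and 2 positive, with a median of log2 -3.29. That sum came mainly from Mpo, at 4.12, 3.51, 2.59 and 1.59 CPM in BAM, against 90.8, 41.3, 34.9 and 45.7 CPM in microglia (log2 -4.17 ± 1.26, adjusted p = 0.0509), and from Prtn3 (log2 -2.61 ± 0.90, adjusted p = 0.096), enzymes of immature myeloid cells named here after their values were seen. Elane stayed under 1 CPM, and Camp, Retnlg and Ctsg had no count. The lymphoid list had 1 call, Il7r, a cytokine receptor also found on fetal myeloid cells, with 0, 0, 0.155 and 0 CPM in BAM, against 12.3, 7.99, 5.54 and 12.4 CPM in microglia (adjusted p = 1.47e-05), while Cd3e, Rag1 and Ncr1 had no count. The lymphoid sum was 46.7 to 101 CPM in BAM and 80.5 to 111 CPM in microglia and came mainly from Cd79b, a chain of the B-cell receptor complex named here after its values were seen, with 46.3, 75.04, 91.2 and 101 CPM in BAM, against 67.6, 75.7, 79.9 and 98.4 CPM in microglia (log2 -0.036 ± 0.20, adjusted p = 1). The part of such cells in the genes lower in BAM was not tested.

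Markers of non-blood cells gave a less even picture. The endothelial sum was 141 to 170 CPM in BAM and 188 to 201 CPM in microglia over 12 genes, of which the VEGF receptor Flt1 was called lower (log2 -2.41 ± 0.63, adjusted p = 0.0168), although not in the fit of the 8 libraries alone (adjusted p = 0.0788), with libraries of the same number series alone (0.138) or without BAM replicate 3 (0.0689). Although the endothelial sum was lower in BAM, 7 of the 12 changes were positive and 5 negative, with a median of log2 0.21. Sums of neural markers (77.5 to 147 CPM in BAM and 112 to 154 CPM in microglia) and of erythroid markers (79.1 to 126 CPM in BAM and 56.7 to 167 CPM in microglia) overlapped, and with the block 2 erythroid and 2 endothelial genes were called. Of 14 neural genes 12 had positive and 2 negative changes, with a median of log2 0.60. The neural list held 1 lower gene, the intermediate filament gene Nes (log2 -0.93 ± 0.25, adjusted p = 0.0254), which was not called without any 1 of microglia replicate 2 and BAM replicates 1, 3 and 4 (adjusted p = 0.0631 to 0.0921), and 1 higher gene, Gap43, a growth cone protein, with 12.3, 13.8, 21.8 and 26.9 CPM in BAM, against 2.01, 1.60, 3.79 and 4.95 CPM in microglia (log2 2.60 ± 0.39, adjusted p = 2.49e-05). Mesenchymal and mural markers summed to 6.62 to 34.3 CPM in BAM and 4.799 to 24.0 CPM in microglia. Of the 11 tested 5 had positive and 5 negative changes, with a median of log2 0. In that list Dcn, a matrix proteoglycan, had no count in BAM and 76 counts in microglia, all from replicates 2, 3 and 4, and was at least 26.4-fold lower. It was not called with that number series alone (adjusted p = 0.0774). Acta2, smooth muscle actin, had 0.0710, 0, 0 and 0.0859 CPM in BAM, against 0, 4.11, 4.25 and 0.371 CPM in microglia, and its call was lost with the block of neighbouring library numbers (adjusted p = 0.0753). Enpp2, the enzyme autotaxin of the epithelial and choroid plexus list, had 17.2, 11.3, 18.3 and 19.1 CPM in BAM, against 1.66, 2.03, 3.03 and 5.40 CPM in microglia (log2 2.44 ± 0.37, adjusted p = 2.61e-05). The adherens junction cadherin Cdh1 had no count in BAM and 86 counts in microglia, and was at least 29.8-fold lower in BAM. It was not called with the block (adjusted p = 0.109) or, at 0.0688 to 0.0919, without any 1 of the 4 BAM libraries and microglia replicates 2 and 3. Of the choroid plexus transcripts, Ttr held 6 counts in BAM and none in microglia, and Folr1 13 counts in BAM and 6 in microglia. In the epithelial and choroid plexus list 5 of 10 changes were positive and 4 negative, with a median of log2 0.51. Markers of megakaryocytes and platelets, cells that also make Pf4, summed to 8.21 to 19.3 CPM in BAM and 12.47 to 18.6 CPM in microglia. Of those 10 genes 1 was called higher in BAM, the platelet chemokine Ppbp with 2.06, 1.94, 5.64 and 4.55 CPM in BAM, against 0.611, 0, 0.986 and 0.495 CPM in microglia (log2 2.75 ± 0.76, adjusted p = 0.0266), and 1 lower, the receptor Treml1 (log2 -4.76 ± 0.90, adjusted p = 0.000576). Ppbp was not called in the fit of the 8 libraries alone (adjusted p = 0.168) or, at 0.0562 to 0.0737, without any 1 of microglia replicates 1, 2 and 4 and BAM replicates 3 and 4. Treml1 held counts in 1 BAM library, replicate 2. Over the 10 megakaryocyte and platelet genes 6 changes were positive and 4 negative, with a median of log2 0.75. Mast cell markers summed to 0.497 to 1.93 CPM in BAM and 0.509 to 3.15 CPM in microglia. The part of non-blood cells in these values was not tested.

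**Figure D4:**
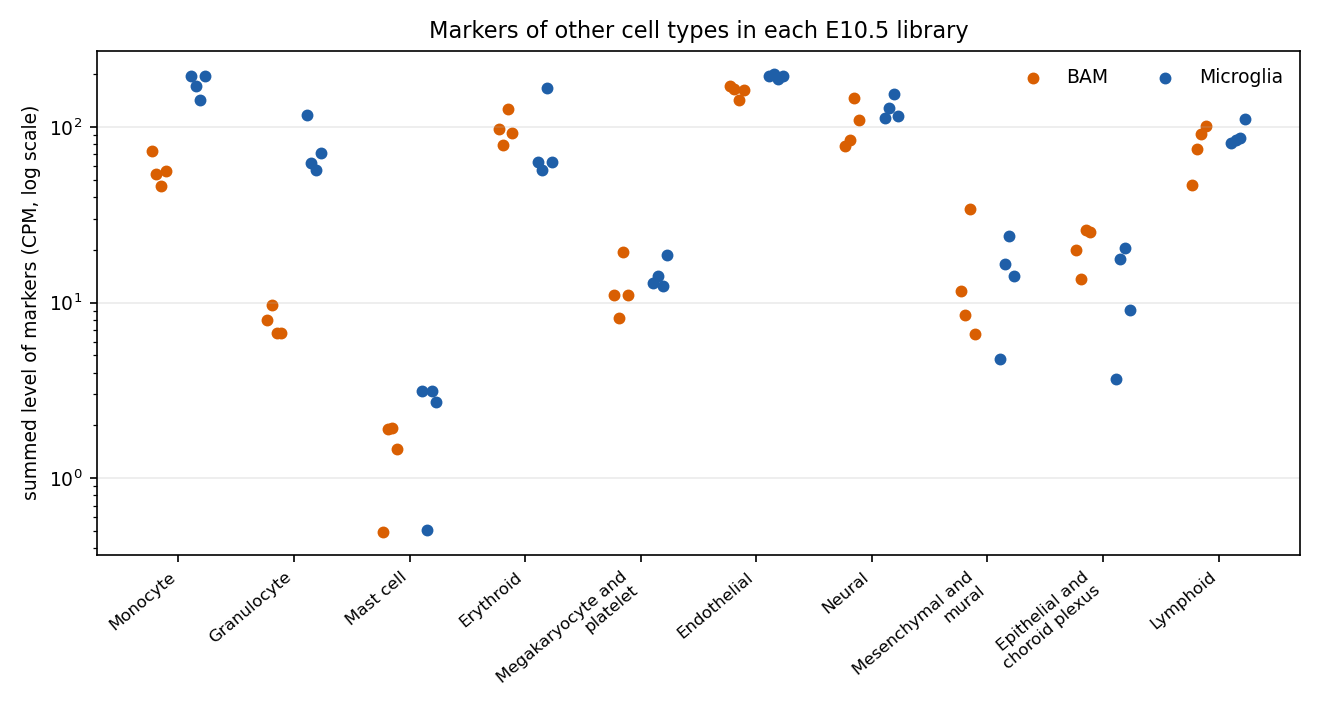
Summed level of the markers of 10 other cell types in each E10.5 library (vertical axis, CPM, log scale), BAM in orange to the left and microglia in blue to the right. The monocyte, granulocyte and endothelial sums of the 4 BAM libraries lie below those of the 4 microglia libraries, with 46.3 to 72.8 CPM in BAM and 142 to 196 CPM in microglia for monocytes, and the sums of the other 7 overlap. Among the 12 endothelial genes 7 changes were positive and 5 negative, and among the 6 tested granulocyte genes 2 were positive and 4 negative.

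To see which of these differences were particular to E10.5, the change at E10.5 was set against that at E11.5, the next stage, with 3 BAM and 3 microglia libraries of the same series of library numbers. The change differed in 162 genes, 0.734% of those tested, being more positive at E10.5 in 112 (0.508%) and more negative in 50 (0.227%). Of the 989 genes called at E10.5, 68 had such a difference. The count of 162 changed with the fit, and was 257 with the block of neighbouring library numbers, 33 with libraries of this number series alone, and 102 without BAM E11.5 replicate 2. Fcrls stood at log2 0.92 ± 0.11 at E10.5 and -0.19 ± 0.12 at E11.5 (difference 1.11 ± 0.16, adjusted p = 0.000241). P2ry12 stood at log2 -0.54 ± 0.17 at E10.5 and -2.07 ± 0.20 at E11.5 (difference 1.52 ± 0.26, adjusted p = 0.00174). Tmem119 was likewise less reduced at E10.5, by a difference of 1.45 ± 0.33, adjusted p = 0.0237. The difference in Tmem119 missed the threshold without any 1 of BAM E10.5 replicate 2, microglia E10.5 replicates 3 and 4 and replicate 2 of either group at E11.5 (adjusted p = 0.0517 to 0.0927), and at 0.195 with libraries of this number series alone. The separation of the populations by P2ry12 and Tmem119 was thus smaller at E10.5 than at E11.5.

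Further genes followed the same order. Serpine2 stood at log2 -2.57 ± 0.36 at E10.5 and -5.81 ± 0.48 at E11.5 (difference 3.23 ± 0.54, adjusted p = 0.00154). Parvg, an actin-binding partner of integrins in blood cells, stood at log2 -1.22 ± 0.23 at E10.5 and -3.25 ± 0.28 at E11.5 (difference 2.03 ± 0.34, adjusted p = 0.00174). Mpeg1, the pore-forming protein perforin-2 of macrophages, and Itgal, the CD11a integrin chain whose call at E10.5 was lost without microglia replicate 2 (adjusted p = 0.0698), differed by 1.84 ± 0.34, adjusted p = 0.00451, and 1.40 ± 0.26, adjusted p = 0.00451, and in the fit of this number series alone each missed the threshold (adjusted p = 0.0621 for both). In the other direction, Samsn1, an adaptor protein whose call at E10.5 was lost without any 1 of microglia replicates 1 and 4 and BAM replicates 3 and 4 (adjusted p = 0.0683 to 0.092), stood at log2 -0.58 ± 0.16 at E10.5 and 0.82 ± 0.18 at E11.5 (difference -1.41 ± 0.24, adjusted p = 0.00174). Gpr183, a receptor for oxysterols that guides immune cells, stood at log2 -1.06 ± 0.16 at E10.5 and 0.31 ± 0.19 at E11.5 (difference -1.37 ± 0.25, adjusted p = 0.00289). Both were lower in BAM at E10.5 and higher, though not past the threshold for Gpr183, at E11.5. Sema6d, by contrast, was less raised at E11.5 (log2 1.85 ± 0.34, difference 2.97 ± 0.51, adjusted p = 0.00174), a difference that missed the threshold with the 4 groups compared alone (adjusted p = 0.0574).

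At E18.5, the latest stage, with 4 libraries of each population, 55 genes called at E10.5 were called with the opposite sign, 35 of them higher and 20 lower in BAM at E10.5. For all 55 the difference itself was called (1463 of all tested genes, 6.63%, had such a difference, 3.55% more positive and 3.08% more negative at E10.5). Fcrls reached log2 -1.45 ± 0.11 at E18.5 (difference 2.38 ± 0.15, adjusted p = 1.78e-13) and Ctsb -0.66 ± 0.11 (difference 1.56 ± 0.15, adjusted p = 5.85e-09), both higher in BAM at E10.5. The hydrolase Abhd12, the amino acid transporter Slc7a7 and the fatty acid importer Cpt1a turned in the same way, at log2 -1.12 ± 0.10, -1.04 ± 0.11 and -1.27 ± 0.13 at E18.5. Cybb, the catalytic subunit of the phagocyte oxidase, had 97.6, 122, 39.3 and 86.4 CPM in BAM, against 388, 449, 246 and 314 CPM in microglia at E10.5 (log2 -2.02 ± 0.22, adjusted p = 1.32e-07) and stood at log2 1.74 ± 0.22 at E18.5 (difference -3.76 ± 0.31, adjusted p = 1.69e-10). Ccr1 stood at 1.25 ± 0.12, Gpr183 at 1.34 ± 0.16, the lipase Pla2g7 at 1.36 ± 0.27 and Samsn1 at 1.04 ± 0.16 at E18.5, each lower in BAM at E10.5. Of the E18.5 libraries 1 BAM and 1 microglia library belong to the number series of the E10.5 libraries. With those alone, each assumed to vary like the other groups, the differences of these 10 genes kept their direction and stayed called. They ranged from 1.64 to 2.56 for the first 5 and from -4.29 to -1.85 for the others, and the count over all genes was 420.

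**Figure D5:**
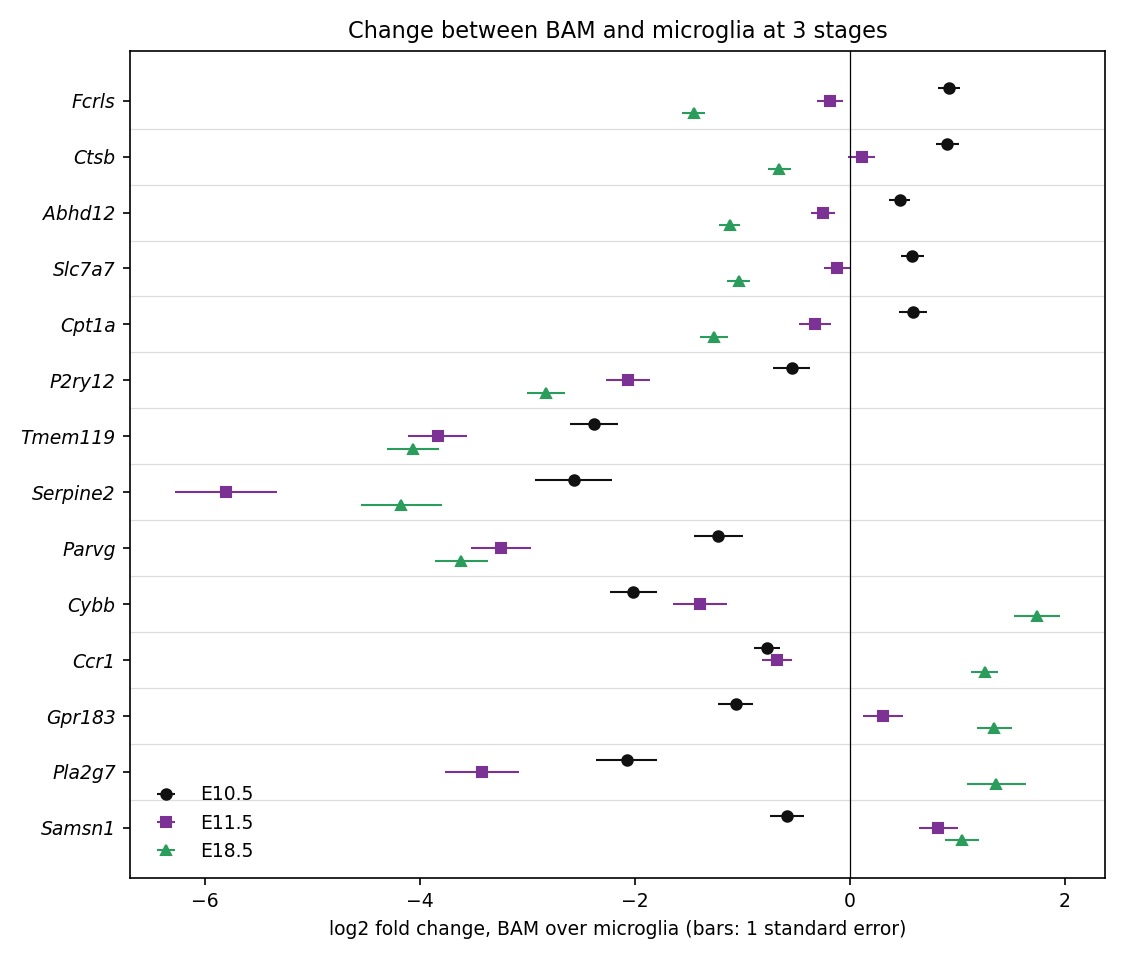
Change between BAM and microglia (horizontal axis, log2 fold change of BAM over microglia, with bars of 1 standard error) at E10.5, E11.5 and E18.5 for 14 genes whose change differed between stages. Fcrls, Ctsb, Abhd12, Slc7a7 and Cpt1a lie above 0 at E10.5 and below it at E18.5, and Cybb, Ccr1, Gpr183, Pla2g7 and Samsn1 below 0 at E10.5 and above it at E18.5.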

How the data were processed

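RNA of FACS-sorted BAM and microglia was sequenced, and the authors deposited raw read counts per gene for 39 libraries. Per the submitters' processing notes, reads were handled with STAR and featureCounts on GRCm38. Versions, annotation and strand setting are not given in the sources used here, so overlapping and antisense genes cannot be told apart, and the added ERCC standards were not used here. No molecular tags were used, hence counting intervals (95%) cover counting error only. A zero was bounded with 3 counts placed over the group.

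Symbols were taken from the annotation table for 53274 of 53379 identifiers, and every count column was mapped to a sample. The tested genes held 99.973% of counts. Counts of all 39 libraries in 12 groups (stage and population) were fitted with edgeR 4.0.16 (filterByExpr, TMM, glmQLFit and glmQLFTest, limma 3.58.1, R 4.3.3), leaving 27 residual degrees of freedom and a common biological coefficient of variation of 55.08%. Calls used an adjusted p under 0.05. Standard errors were derived from the fold change and the F statistic. Summed levels and levels per library are TMM-normalised CPM, and mean log2 CPM used a prior count of 2. The script was tested on simulated counts before use.

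Neighbouring library numbers in the sample titles join 1 BAM and 1 microglia library. Deviations from group means correlated at 0.528, 0.195, 0.369 and 0.235 within the 4 pairs over 7433 genes, and at -0.409 to 0.284 in the 12 other combinations, of which BAM replicate 4 with microglia replicate 3 was the highest and lay above 2 of the pairs. The numbers were taken to pair the libraries because every pair was over 0.1, and a fit with the pair as a block was run as an alternative. Other alternatives were RLE size factors, no filter on low counts, DESeq2 1.42.0, the 8 E10.5 libraries alone, the libraries of the same number series alone, the groups compared alone, counts divided by 2, a test against a 2-fold change, and leaving out each library in turn.

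Genes were named by a rule. It took the 15 most raised and 15 most reduced called genes whose mean log2 CPM was 4 or more. It added up to 4 called members of each list by smallest p, a fixed marker panel, and up to 5 genes per direction whose change differed at E11.5 or was opposite at E18.5. Predicted genes were left out, and some genes that the rule names are not reported here. The gene lists, the panel and the comparison itself were chosen with earlier results of these data known.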

Additional observations from a re-analysis of the deposited data

Results flagged for a closer look

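Within the groups of 4 libraries, 1 library stood far from the other 3 in 22 of 314 sets of values examined. Chance gives about 1 in 20 for independent sets with a normal spread. These sets share libraries and genes, so the count of 22 cannot be set against that rate. Where the other 3 libraries held no count, any count stood apart. Bmp2 reached 27.6 CPM in BAM replicate 1, the highest of the BAM libraries by a wide gap. BAM replicate 1 was also apart with 263 CPM of Hk3, 59.96 CPM of Ddx3y, 1.916 CPM of Sall1 and a summed 15550 CPM of scavenger and endocytic receptors, all highest, and with 0.2129 CPM of Ccr2 and 1.313 CPM of Ms4a4c, both lowest. In BAM replicate 2 alone of the BAM libraries Treml1 had counts (0.1075 CPM). BAM replicate 3 held the highest levels of Folr1 (0.5024 CPM), Il7r (0.1546 CPM), Itgax (0.07729 CPM) and Ly6c2 (0.07729 CPM), with no count in the other BAM libraries, and the lowest of Maf (224 CPM).

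Microglia replicate 2 was the highest microglia library by a wide gap for Ctsh (182.8 CPM), Serpine2 (140.6 CPM), Sgk1 (198.1 CPM) and Sparc (137.9 CPM), and the lowest for the summed mast cell markers (0.5085 CPM). Microglia replicate 1 alone had counts of Cd163 (0.2617 CPM), and was the lowest for Hk3 (84.63 CPM) and for the summed axon-tract and lipid-associated genes (3792 CPM). Microglia replicate 3 had the highest summed erythroid markers (166.7 CPM).

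The change of BAM over microglia differed between stages for genes named above, by the test of the difference itself. As E10.5 minus E11.5, on the log2 scale, the difference was 3.23 in Serpine2, 2.97 in Sema6d, 2.03 in Parvg, 1.86 in Timp2, 1.84 in Mpeg1, 1.52 in P2ry12, 1.45 in Tmem119, 1.40 in Itgal, 1.11 in Fcrls, 0.91 in Cpt1a, 0.80 in Ctsb, 0.71 in Abhd12 and 0.70 in Slc7a7. It was -1.37 in Gpr183 and -1.41 in Samsn1. For Mmp14 (-7.80) and Dcn (-8.80) the BAM libraries at E10.5 held no count, and these fitted values depend on the prior count. Of these, the differences of Timp2, Tmem119, Slc7a7, Cpt1a and Dcn lost their call without at least 1 of the libraries. With libraries of the same number series alone the same 5 and those of Ctsb (0.0678), Abhd12 (0.175), Mmp14 (0.0695), Mpeg1 and Itgal missed the threshold, at adjusted p = 0.0618 to 0.318. With the 4 groups compared alone all 10 missed it again, at 0.0525 to 0.362, and Sema6d did at 0.0574.

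As E10.5 minus E18.5, the difference was 2.38 in Fcrls, 1.85 in Cpt1a, 1.62 in Slc7a7, 1.58 in Abhd12 and 1.56 in Ctsb, which were higher in BAM at E10.5 and lower at E18.5. It was -2.02 in Ccr1, -3.76 in Cybb, -2.40 in Gpr183, -3.44 in Pla2g7 and -1.63 in Samsn1, which were lower in BAM at E10.5 and higher at E18.5.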

How the results depend on the processing

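The 989 calls at E10.5 numbered 1003 with RLE size factors, 1180 with no filter, 1257 with the block of neighbouring library numbers and 1027 with counts divided by 2. They numbered 1623 with DESeq2, 603 with libraries of this number series alone, 524 with the 8 libraries alone (where 106 of 113 named genes had a value), 125 in a test against a 2-fold change, and 752 to 1011 without each library in turn. Of the 989, 983 were shared with DESeq2, 900 with the block, 564 with the number series and 478 with the 8 libraries. Among 113 named genes, a count that leaves out Fn1, 106 were called. RLE size factors and DESeq2 lost none of these calls, the 8 libraries alone 12, the number series 7, the 2-fold test 60, and 15 were lost without at least 1 library. The block lost 3 and added 2, and changed no other call of the named genes. Of 72 list counts, 21 moved by over 1.5 times with the 8 libraries alone, 19 with the block and 14 with DESeq2. Without each library in turn Xist ran from log2 -0.16388 to 0.22198 and Ddx3y from -0.39097 to 0.050569. Xist turned to -0.16388 (microglia replicate 1), -0.015491 (microglia replicate 3), -0.042703 (BAM replicate 3) and -0.0050473 (BAM replicate 4), and Ddx3y to 0.050569 (BAM replicate 3) and 0.036002 (BAM replicate 4), none called.

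The 162 differences from E11.5 numbered 334 with no filter, 482 with DESeq2, 33 with the number series alone, 32 with the 4 groups compared alone, 257 with the block, and 102 to 227 without each library. The 1463 differences from E18.5 numbered 1789 with the block, 420 with the E18.5 libraries of the number series, and 1240 to 1475 without each library. The causes were not tested. Depth limits genes with few counts, since 124 of the 989 had at most 3 counts in 1 group.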
